A study of Mus musculus with 2 samples.

Results

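Imprinted genes are transcribed mainly from the allele of 1 parent, and 43 of them, grouped into 15 loci by position and by the parental allele known to be active, were compared between 2 kinds of cultured mouse dermal cells. They were chosen by symbol, with no measured value in the rule, from 17431 genes with a read in either library. Earlier results of these data were known when they were chosen. A member without a row in a table was taken as 0 reads there. Of the 43 members, 41 had reads in at least 1 library and 31 passed an expression filter of 1 RPKM (reads per kilobase of gene length per 1000000 counted reads) and 20 reads in either library. Of those 31, only Zim1 passed through the SKP library alone. The 12 members below the filter were described but not called.

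Both cultures came from dermis of the inbred strain BALB/c. The fibroblasts, from pups at postnatal day 3, grew in DMEM with 10% fetal bovine serum. The skin-derived precursors (SKPs), which are multipotent dermal cells that proliferate in response to growth factors, came from pups at postnatal day 4. Their serum-free medium, DMEM/F12 mixed 3:1, carried 2% B27 with the growth factors EGF (20 ng/ml) and FGF2 (40 ng/ml). Each cell type was 1 library of oligo(dT)-selected RNA, so cell type, medium and age cannot be told apart, no test between them could be run, and every difference is between these 2 libraries. Ranges in parentheses are 95% Clopper-Pearson limits set by read number alone.

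In an imprinted domain a stretch of DNA methylated in 1 germline, the imprinting control region, sets which parental copy is active. Paternally expressed genes often promote fetal growth and maternally expressed genes often restrain it, and many are silenced after birth. Insulin-like growth factor 2 (Igf2), its clearance receptor Igf2r and the cell cycle inhibitor Cdkn1c are the textbook examples of that opposition. The files hold no allele-specific reads, and parental classes here are background knowledge, not measurements.

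The libraries held 18.4 M and 18.9 M counted reads (fibroblast and SKP, M for 1000000), and 1 read in a gene of 1 kb was worth 0.0543 and 0.0528 RPKM. Dermal fibroblast markers were all above 1 RPKM in both libraries, with sums of 11469.5 RPKM in fibroblasts and 10261 in SKPs. Of these markers, Dcn (6.89-fold) and Col3a1 (3.60-fold) were higher in SKPs, and Thy1 (3.17-fold) and Col1a1 (2.07-fold) were lower. Of 8 SKP markers, Nes and Sox2 stood 2-fold or more higher in SKPs, and 6 were under 2-fold apart. Snai2 (53.9 against 29.0 RPKM) was among 4 with a ratio below equality. Sox2 (0.818 against 1.83 RPKM) passed the filter through the SKP library alone. Beside these and the marker counts below, 12.1% of all genes above the filter were called higher and 6.41% lower. Markers of other cells also differed. The 6 mast cell markers summed to 0.133 RPKM in fibroblasts, with Cpa3 and Mcpt4 at 0, and to 83.0 in SKPs. Of 6 adipocyte markers, 4 were at least 2-fold higher in SKPs and 1 was lower, with a median log2 ratio of 5.26. Adipoq, Plin1 and Cidec passed the filter through the SKP library alone and had to differ, so this count and median are no support. Sums of the 6 adipocyte markers, 352 and 503 RPKM, were carried in fibroblasts by the lower marker, Lpl (321 against 150). Sums for 6 keratinocyte markers were 2.33 and 28.9 (Krt1 and Ivl at 0 in fibroblasts), and for 6 leukocyte markers 4.67 and 23.4 (Emr1 at 0 in fibroblasts). For 4 endothelial markers they were 1.53 and 4.61. Skeletal muscle markers summed to 103 RPKM in fibroblasts and 152 in SKPs, and 4 of the 5 that passed the filter (Myod1, Myog, Myh3 and Ckm) were at least 2-fold higher in SKPs. The part of these other cells in the results on imprinted genes was not tested, and in bulk RNA more cells of a type cannot be told apart from more RNA per cell.

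Of the 31 imprinted genes above the filter, 9 stood 2-fold or more above the fibroblast level in SKPs with an interval that excluded equality, 1 was lower and 21 were neither. Over all 12053 genes above the filter the shares were 12.1% higher and 6.41% lower, against 29.0% and 3.23% of the imprinted genes. The median log2 ratio of SKP over fibroblast was 0.26, beside -0.01 over all genes above the filter. The 9 were Dlk1, H19, Igf2, Cdkn1c, Mest, Zim1, Peg10, Airn and Igf2r, and the 1 lower gene was Meg3. Together the 43 members took 0.685% (0.681 to 0.688) of counted reads in fibroblasts and 1.64% (1.63 to 1.64) in SKPs. Without H19, Igf2 and Dlk1 the shares were 0.649% (0.646 to 0.653) and 0.705% (0.701 to 0.709), so those 3 genes held most of the difference.

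Several of the genes that differed are hosts of miRNAs, whose mature forms these libraries did not measure. They are shown because the reads of H19, Igf2, Mest and Meg3 come from the loci that contain them. The mature sequences of 1 hairpin in each host, from RefSeq on GRCm38.p6, are printed with the seed (bases 2 to 8) in capitals. The first 2 lie in H19, the next 2 in Igf2, then 2 in Mest and 2 in Meg3.
miR-675-5p: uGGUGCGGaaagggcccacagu
miR-675-3p: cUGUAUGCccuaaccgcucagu
miR-483-5p: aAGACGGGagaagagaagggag
miR-483-3p: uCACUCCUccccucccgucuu
miR-335-5p: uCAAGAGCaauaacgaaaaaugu
miR-335-3p: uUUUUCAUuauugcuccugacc
miR-770-5p: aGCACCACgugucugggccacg
miR-770-3p: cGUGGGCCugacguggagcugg
No seed was shared among these 8. H19, Igf2 and Mest, the first 3 hosts, were higher in the SKP library, and Meg3 was lower. In the same domain as Meg3, Rian held 3 annotated hairpins on its own strand and Mirg 10.

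Promoter sequence was examined because most germline imprints lie at promoters and the hexamer TGCCGC is the core of the site bound by ZFP57, a zinc finger protein that protects imprints. RefSeq promoter windows on GRCm38.p6, from 250 bases before to 50 after a transcription start, were found for 35 members, in 53 windows. TGCCGC on either strand occurred in 14 of the 53 windows (26.4%), beside 11.6% of all 32851 windows of that length. It was in 8 of 18 windows (44.4%) of genes whose promoter is known to lie at a germline imprint and in 6 of 35 (17.1%) of the other members. Some windows overlap, as for Mest, and Snrpn and Snurf share 1, so the same hexamer was counted more than once there. Windows were classed by gene, so those at other starts of a gene, as for Snrpn and Mest, may lie away from its imprint. The letters GCCAT, the core of the YY1 site known at Peg3, were in 41.5% of member windows and 40.5% of all, and a long CTCF-type consensus motif was in 0 of 53 and 12 of 32851. The median number of CpG pairs was 16 in member windows and 7 in all. It was 9.5 in the 18 windows of genes with a promoter at a germline imprint and 17 in the other 35.

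Of the 10 members at least 2-fold apart, 7 had a RefSeq window. Windows of Dlk1, Igf2r and Airn held no TGCCGC, H19, Cdkn1c and Peg10 were not matched, and 4 genes had a window with it. For these 4 genes 1 such window each is printed with the hexamer, on either strand, in capitals. The windows are chr7:142661222-142661521 for Igf2 (minus strand, 14 CpG), chr6:30737800-30738099 for Mest (plus strand, 17 CpG), chr7:6696383-6696682 for Zim1 (minus strand, 20 CpG) and chr12:109540746-109541045 for Meg3 (plus strand, 13 CpG).
Igf2: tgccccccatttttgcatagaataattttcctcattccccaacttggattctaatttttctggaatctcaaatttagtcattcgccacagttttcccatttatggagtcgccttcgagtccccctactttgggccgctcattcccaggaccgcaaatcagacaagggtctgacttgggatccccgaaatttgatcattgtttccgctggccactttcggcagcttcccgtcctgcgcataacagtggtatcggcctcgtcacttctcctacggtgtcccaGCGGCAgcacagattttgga
Mest: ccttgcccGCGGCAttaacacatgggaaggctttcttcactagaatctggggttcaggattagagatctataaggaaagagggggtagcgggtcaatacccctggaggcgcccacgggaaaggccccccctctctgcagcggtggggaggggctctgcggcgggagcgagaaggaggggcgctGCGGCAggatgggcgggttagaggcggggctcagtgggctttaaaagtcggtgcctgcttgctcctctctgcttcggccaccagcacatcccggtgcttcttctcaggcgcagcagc
Zim1: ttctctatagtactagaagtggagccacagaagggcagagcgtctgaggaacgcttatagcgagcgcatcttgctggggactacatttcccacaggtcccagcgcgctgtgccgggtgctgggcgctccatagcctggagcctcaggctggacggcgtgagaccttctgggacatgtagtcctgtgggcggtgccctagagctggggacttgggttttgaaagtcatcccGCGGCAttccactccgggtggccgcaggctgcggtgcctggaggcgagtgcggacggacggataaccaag
Meg3: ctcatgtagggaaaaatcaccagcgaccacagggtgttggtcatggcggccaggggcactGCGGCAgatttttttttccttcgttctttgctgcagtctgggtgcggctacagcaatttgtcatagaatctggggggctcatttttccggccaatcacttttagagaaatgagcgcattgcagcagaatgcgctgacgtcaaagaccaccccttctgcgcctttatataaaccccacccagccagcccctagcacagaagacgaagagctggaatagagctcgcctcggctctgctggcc
Mest had 2 copies and the other windows 1 each. A match describes these letters and shows no binding.

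**Figure D1:**
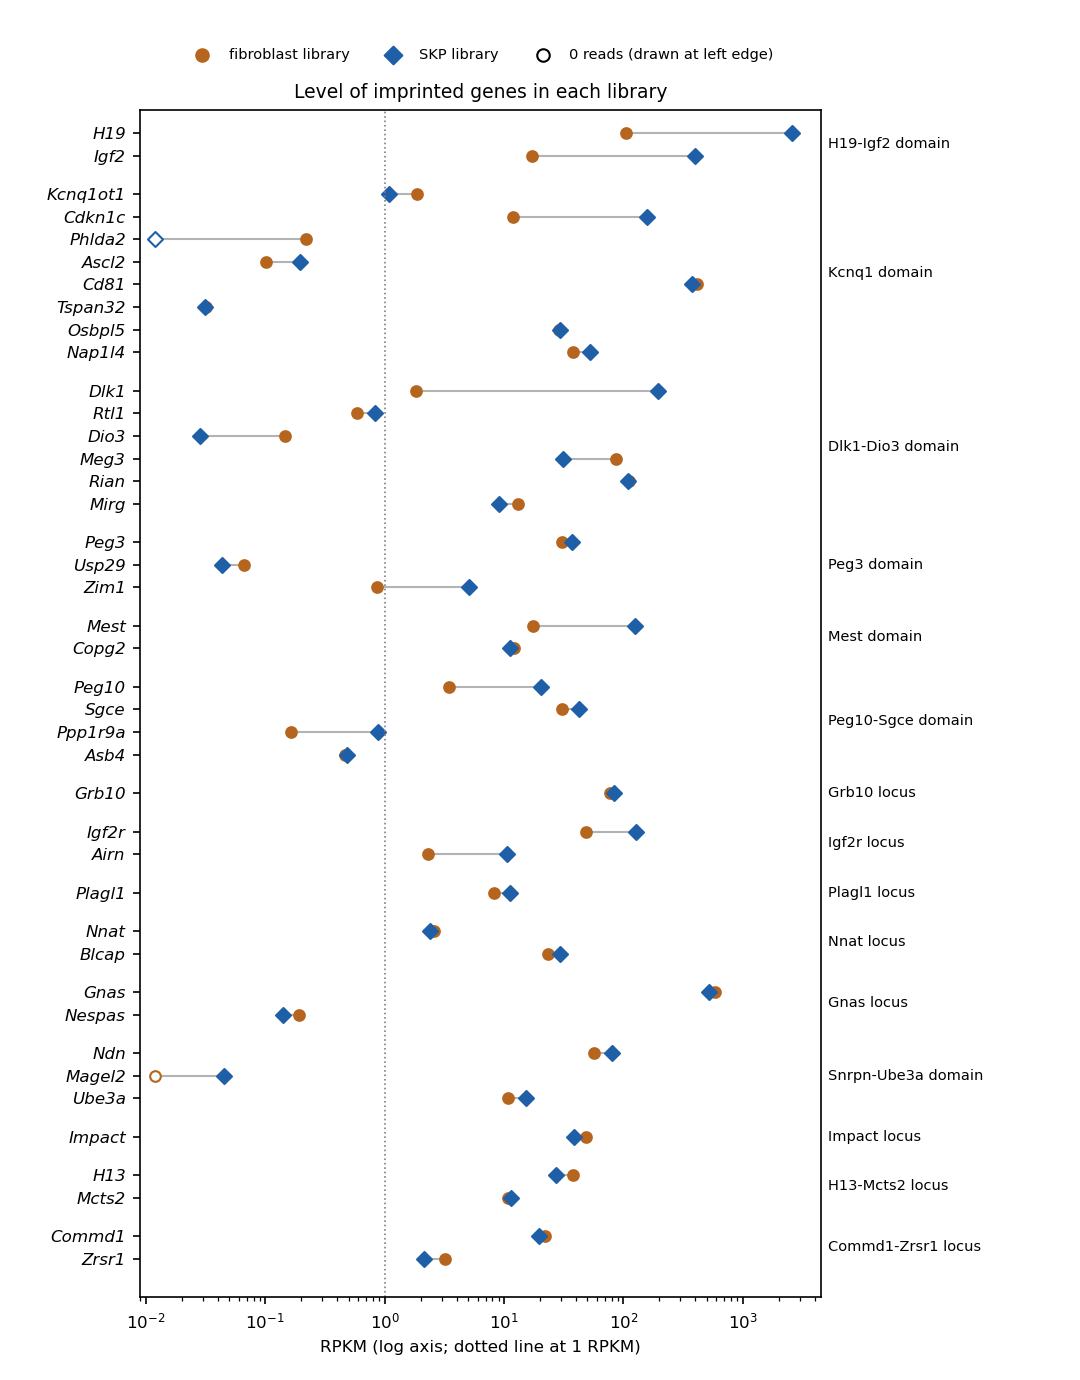
RPKM of the 41 imprinted genes with reads, on a log axis, in the fibroblast library (circles) and the SKP library (diamonds), grouped by locus, with open symbols for 0 reads. The widest gaps among genes above 1 RPKM are those of Dlk1 (1.85 against 196), H19 (105 against 2599.6) and Igf2 (17.2 against 401).

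The H19-Igf2 domain had the highest summed level of the 15 loci in the SKP library. H19 (gene ID 14955), a maternally expressed non-coding RNA and miRNA host, stood at 105 RPKM in fibroblasts (5061 reads) and 2599.6 in SKPs (128817 reads). Igf2 (16002), the paternally expressed fetal growth factor, stood at 17.2 RPKM (1281 reads) and 401 (30672 reads). The SKP library was far above the fibroblast library for both genes, by 24.7-fold for H19 (24.0 to 25.4) and 23.3-fold for Igf2 (22.0 to 24.6). The level of H19 over that of Igf2, per length, was thus 6.10 (5.74 to 6.49) in fibroblasts and 6.49 (6.40 to 6.57) in SKPs, with intervals that overlap. These genes share an enhancer set downstream of H19 and take it up on opposite parental alleles. Of the 5 neighbouring genes above the filter that are not on a list of imprinted genes, only Tnnt3 was at least 2-fold apart. Tnnt3, a fast skeletal muscle troponin, stood at 8.92 RPKM in fibroblasts and 23.6 in SKPs. On the Igf2 side these genes, Cars and Tnfrsf26, are not adjacent to Igf2. They lie beyond Ins2, Th and Tssc4, which were passed over as imprinted. Ins2 and Th were taken as 0 reads in both libraries, and Tssc4 stood at 25.6 and 20.8 RPKM.

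Among imprinted genes that act on IGF2 or its signal, the clearance receptor and its antisense RNA were at least 2-fold higher in SKPs. Igf2r (16004), the maternally expressed receptor that takes IGF2 to lysosomes, stood at 48.6 RPKM in fibroblasts and 128 in SKPs, 2.63-fold higher (2.56 to 2.70). Airn (104103), the paternally expressed antisense RNA that silences Igf2r, stood at 2.29 and 10.6 RPKM and was 4.61-fold higher (3.47 to 6.21). Both members of this antisense pair were therefore higher in the SKP library, and because strandedness was not stated, reads in their overlap cannot be assigned. The level of Igf2 over that of Igf2r was 0.354 (0.334 to 0.376) in fibroblasts and 3.14 (3.08 to 3.19) in SKPs, so the order of the pair was opposite in the libraries. Grb10, an adaptor that inhibits insulin and IGF receptors, stood at 77.2 and 83.7 RPKM, under 2-fold apart. Plagl1, which encodes the zinc finger factor ZAC1, stood at 8.18 and 11.2 RPKM.

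Outside the imprinted set, 5 of 14 genes of the IGF2 axis above the filter were at least 2-fold higher in SKPs, 2 were lower and 7 differed by less, beside 12.1% and 6.41% of all genes above the filter. Igfbp4 (24.7-fold, 21.7 to 28.3) and Igfbp3 (8.72-fold, 8.24 to 9.24), which encode IGF-binding proteins, were higher, as were the chromatin protein gene Hmga2 (4.09-fold, 3.95 to 4.24), the receptor substrate gene Irs2 (2.63-fold) and Igf1 (2.49-fold). Igf1r, the receptor through which IGF2 signals, went the other way at 20.8 RPKM in fibroblasts and 7.53 in SKPs, and the binding protein gene Igfbp2 at 21.8 and 2.48. Igfbp5 had the highest level, 489 RPKM in fibroblasts and 762 in SKPs. The median log2 ratio of this list was 0.34.

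The Kcnq1 domain was divided. Cdkn1c (12577), which encodes the maternally expressed cyclin-dependent kinase inhibitor p57, stood at 11.8 RPKM in fibroblasts (424 reads) and 159 in SKPs (5877 reads). It was 13.5-fold higher (12.2 to 14.9), the 1 member of this domain at least 2-fold apart. Kcnq1ot1, the paternally expressed antisense RNA that silences the domain in cis, stood at 1.87 and 1.08 RPKM and was 1.73-fold lower in SKPs (1.63 to 1.84), short of 2-fold. Its gene model is 83437 bases long, and 40.6% and 33.4% of it lay under reads.

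The other Kcnq1-domain genes, imprinted mainly in placenta, showed no such gap. The tetraspanin gene Cd81 stood at 413 and 375 RPKM, the lipid transfer gene Osbpl5 at 29.0 and 29.6, and the histone chaperone gene Nap1l4 at 38.0 and 52.2. The ratios of these 3 genes lay between -0.14 and 0.46 on the log2 scale. Ascl2, a basic helix-loop-helix factor of trophoblast, had 3 and 6 reads, and the blood cell tetraspanin gene Tspan32 had 1 read in each library. Phlda2, which restrains placental growth, had 3 reads in fibroblasts and 0 in SKPs, where 3 reads would be 0.215 RPKM, and no fold is given.

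The Dlk1-Dio3 domain held the largest ratio of all members and the only one called lower. Dlk1 (13386), a paternally expressed EGF-repeat transmembrane protein of preadipocytes, stood at 1.85 RPKM in fibroblasts (159 reads) and 196 in SKPs (17398 reads), 106-fold higher (90.9 to 125). Its ratio lay above those of 99.6% of genes over the filter. Of 6 adipocyte markers, 4 were at least 2-fold higher in SKPs, beside 12.1% of all genes above the filter. Adipoq, Plin1 and Cidec passed the filter through the SKP library alone, so that count is no support. The adipokine gene Adipoq stood at 0.176 and 35.5 RPKM, and the fatty acid carrier gene Fabp4 at 22.6 and 243. The lipid droplet gene Plin1 stood at 0.0842 and 11.6 RPKM, and Cidec at 0.0319 and 51.1. Lpl went the other way, at 321 and 150 RPKM, and Pparg, at 7.34 and 13.1, was under 2-fold apart. The part of fat cells in the Dlk1 value was not tested. Meg3 (17263), a maternally expressed long non-coding RNA of the same domain, stood at 86.1 RPKM in fibroblasts (18135 reads) and 31.3 in SKPs (6790 reads), 2.75-fold lower in SKPs (2.67 to 2.83). In fibroblasts Meg3 was 46.7 times as abundant as Dlk1 per length (39.9 to 54.9), and in SKPs Dlk1 was 6.26 times as abundant as Meg3 (6.09 to 6.44).

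The maternal RNAs of that domain, which are thought to be made largely as 1 long transcript, did not differ by the same ratio. Rian, a host of small nucleolar RNAs, stood at 112 and 108 RPKM (0.967-fold, 0.936 to 0.999). Mirg, a miRNA host further downstream, stood at 13.01 and 9.11 RPKM and was 1.43-fold lower in SKPs (1.20 to 1.70). Rian over Meg3 was therefore 1.30 (1.26 to 1.34) in fibroblasts and 3.45 (3.34 to 3.57) in SKPs, and the intervals are far apart.

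Meg3 also had less of its model under reads in SKPs, 74.9% against 87.9%. The remaining paternal genes of the domain were scarce in both libraries. Rtl1, a retrotransposon-derived gene needed in placenta and muscle, had 57 and 82 reads (0.592 and 0.827 RPKM). The thyroid hormone deiodinase gene Dio3 had 5 reads in fibroblasts and 1 in SKPs, a 5.15-fold difference whose interval (0.576 to 243) includes equality. Of the neighbouring genes not known to be imprinted, 5 were above the filter and 0 were 2-fold apart, whereas the imprinted neighbour Begain stood at 2.61 RPKM in fibroblasts and 9.87 in SKPs, 3.78-fold higher (3.12 to 4.62).

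**Figure D2:**
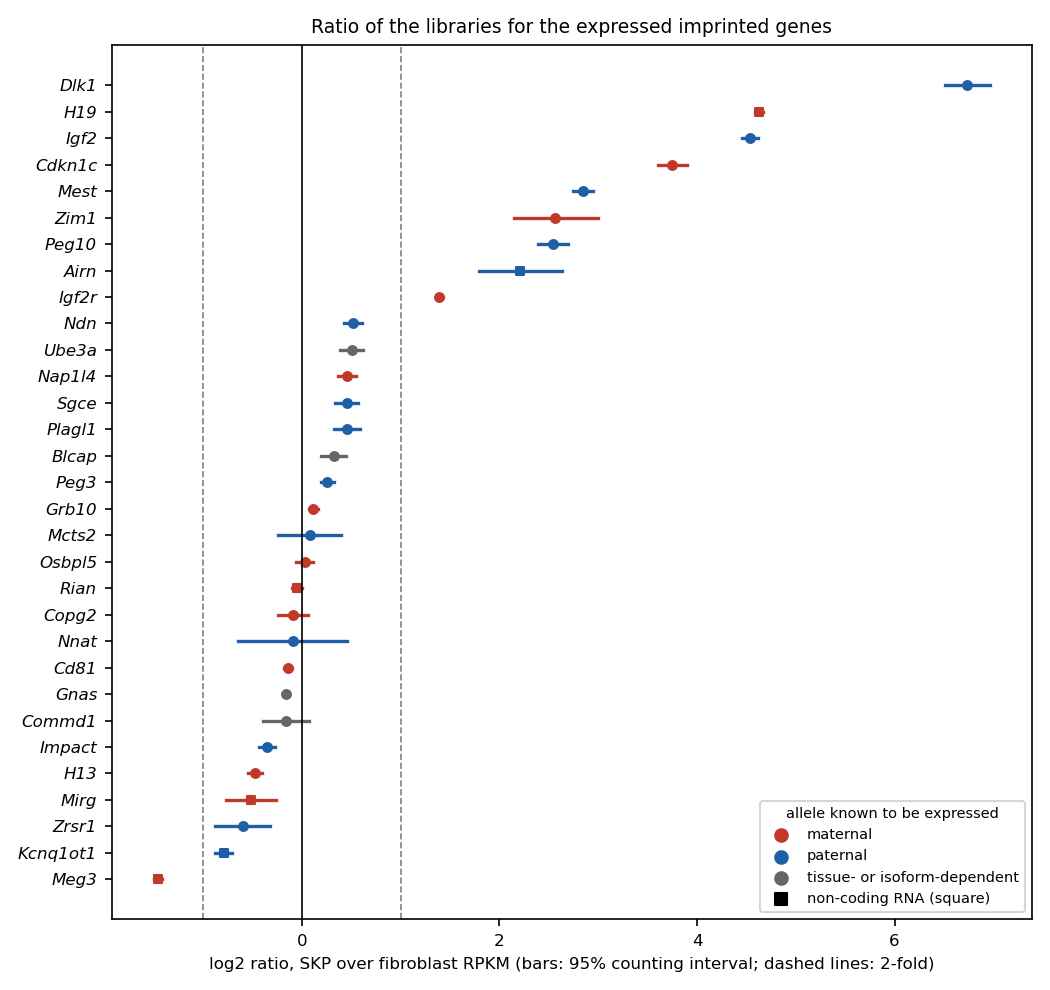
Log2 ratio of SKP over fibroblast RPKM for the 31 imprinted genes above the expression filter, with 95% counting intervals, coloured by the allele known to be expressed. Dlk1 is at 6.73, H19 and Igf2 are at 4.63 and 4.54, and Meg3 at -1.46 is the 1 gene below the lower 2-fold line.

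Among retrotransposon-derived and zinc finger genes, some partners at 1 promoter differed from each other. Peg10, a paternally expressed gag-pol-derived gene, stood at 3.47 RPKM in fibroblasts and 20.3 in SKPs, 5.83-fold higher (5.26 to 6.47). Sgce, which encodes epsilon-sarcoglycan and starts beside Peg10 in the opposite direction, stood at 30.7 and 42.1 RPKM (1.37-fold, 1.27 to 1.49). The level of Sgce over that of Peg10 was 8.83 (7.88 to 9.91) in fibroblasts and 2.08 (1.95 to 2.22) in SKPs. Ppp1r9a, the neurabin gene of that domain, had 29 and 160 reads and was 5.36-fold higher (3.59 to 8.26), but at 0.884 RPKM in SKPs it lay below the filter. Asb4, a SOCS box protein gene, had 28 and 30 reads.

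In the Peg3 domain, Peg3, a paternally expressed zinc finger gene, stood at 30.7 and 36.8 RPKM, 1.20-fold higher in SKPs (1.15 to 1.25). The maternally expressed zinc finger gene Zim1 stood at 0.862 and 5.09 RPKM, 5.90-fold higher (4.43 to 7.97). As Zim1 passed the filter through the SKP library alone, it had to differ. Usp29, a ubiquitin protease gene that shares its start region with Peg3, had 9 and 6 reads.

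Mest (17294), a paternally expressed hydrolase-fold protein of growing mesoderm, stood at 17.6 RPKM in fibroblasts (867 reads) and 126 in SKPs (6406 reads), 7.18-fold higher (6.68 to 7.71). Copg2, a coat protein gene that runs toward Mest from the other strand, stood at 12.0 and 11.3 RPKM. The SKP library was thus high for Mest and level for its neighbour, and Mest over Copg2 was 1.46 (1.32 to 1.61) in fibroblasts and 11.2 (10.3 to 12.1) in SKPs.

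The remaining loci held no gene that was 2-fold apart. In the domain linked to Prader-Willi and Angelman syndromes, Ndn, a MAGE-family growth suppressor, stood at 56.5 and 80.8 RPKM and the ubiquitin ligase gene Ube3a at 10.7 and 15.2. Their ratios were 1.43-fold (1.34 to 1.52) and 1.42-fold (1.31 to 1.54). Magel2 had 0 reads in fibroblasts, where 3 reads would be 0.0350 RPKM, and 4 reads in SKPs. Against that floor of 3 reads it was at least 1.30-fold higher in SKPs, and the exact interval limit, 0.641, lies below equality. Snrpn and Snurf, encoded on 1 bicistronic transcript, were taken as 0 reads by the rule. A gene model or row missing for another reason would look the same, so no level is given for them.

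The 3 loci with a retrogene or small gene inside a host gene held no 2-fold difference. Nnat, a membrane proteolipid gene in an intron of Blcap, stood at 2.58 and 2.42 RPKM, and Blcap at 23.4 and 29.2. Mcts2, a retrogene in an intron of H13, stood at 10.9 and 11.5 RPKM, and H13, the signal peptide peptidase gene, at 38.0 and 27.3. Zrsr1, a splicing factor retrogene in an intron of Commd1, stood at 3.22 and 2.13 RPKM, and Commd1 at 21.9 and 19.6. Mcts2 and Zrsr1 have close relatives elsewhere, Mcts1 and Zrsr2, so their reads may be shared. Impact, a paternally expressed inhibitor of the kinase GCN2, stood at 48.8 and 38.3 RPKM.

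Gnas (14683), which encodes the stimulatory G protein alpha subunit, was level in amount and differed in coverage. It stood at 584 RPKM in fibroblasts (40591 reads) and 525 in SKPs (37549 reads), 1.11-fold lower in SKPs (1.10 to 1.13). Yet 49.0% of its 3775-base model lay under reads in fibroblasts and 84.0% in SKPs, a difference of 34.9 percentage points. Among 3430 genes with at least 1000 reads in both libraries the median absolute difference in coverage was 0.840 points, 6 genes differed by 20 points or more, and Gnas ranked 2. Gnas is known to use several first exons, 1 of them paternally and 1 maternally expressed, and the deposited tables do not split its reads by exon. Nespas, the paternal antisense RNA of the locus, had 8 and 6 reads. Among the 17 imprinted genes with that depth, Meg3 had the next largest difference, -12.9 points in SKPs.

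**Figure D3:**
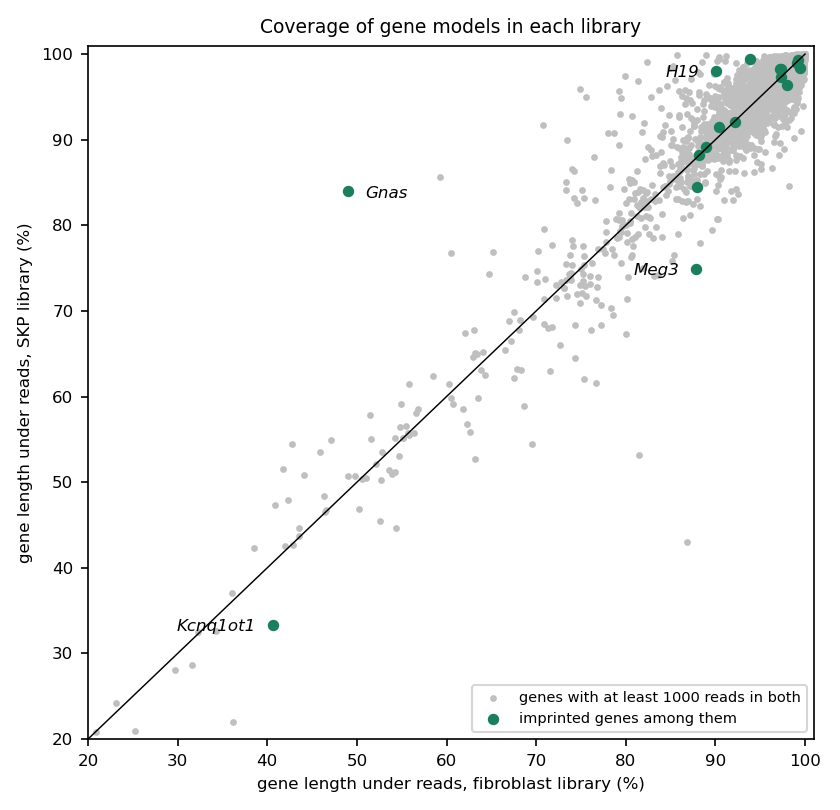
Share of the gene model under reads in the fibroblast library (x axis, %) and the SKP library (y axis, %) for 3430 genes with at least 1000 reads in both, with the 17 imprinted genes in green. Gnas lies above the diagonal at 49.0% and 84.0%, and Meg3 below it at 87.9% and 74.9%.

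By parental class, beside 12.1% of all genes called higher and 6.41% lower, 5 of 14 paternally expressed genes above the filter were at least 2-fold higher in SKPs and 0 were lower, with a median log2 ratio of 0.45. Of 13 maternally expressed genes, 4 were higher, Meg3 was lower and 8 differed by less, and the median was 0.03. Both classes thus held genes of large ratio, and the range was -0.79 to 6.73 for paternal and -1.46 to 4.63 for maternal genes. By kind of RNA, 2 of 6 non-coding RNAs were higher and 1 was lower, and 7 of 25 coding genes were higher and 0 were lower. Differences between classes were not tested.

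Genes near the imprinted loci were compared in the same way. The 3 nearest protein-coding genes on each side of each locus were taken, passing over members of any locus and other genes on a list of imprinted genes. Some of them, as on the Igf2 side of the H19-Igf2 domain, are therefore not adjacent to the locus and cannot show how far a difference reached. Of these 87, 52 were above the filter, 4 were at least 2-fold higher in SKPs (7.69%, beside 12.1% of all genes), 2 were lower (3.85%, beside 6.41%) and 46 differed by less. Their median log2 ratio was -0.04. The higher neighbours were Gng11, Cox4i2, Tnnt3 and Otud7a. Of these, Cox4i2 (14 against 47 reads) and Otud7a (0.141 against 1.46 RPKM) passed the filter through the SKP library alone. Both were thus kept by the library in which they are high, and Otud7a had to be higher there, though not by 2-fold. The lower ones were B3gnt2 and Stx16. With other imprinted genes kept, 51 of 87 were above the filter, 4 were higher and 3 were lower. Begain and Cobl then stood among the higher and Atp10a among the lower, and Gng11 and Otud7a were no longer among the 3 nearest. Gng11, a G protein gamma subunit gene beside Peg10 and Sgce, stood at 41.9 RPKM in fibroblasts and 155 in SKPs.

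**Figure D4:**
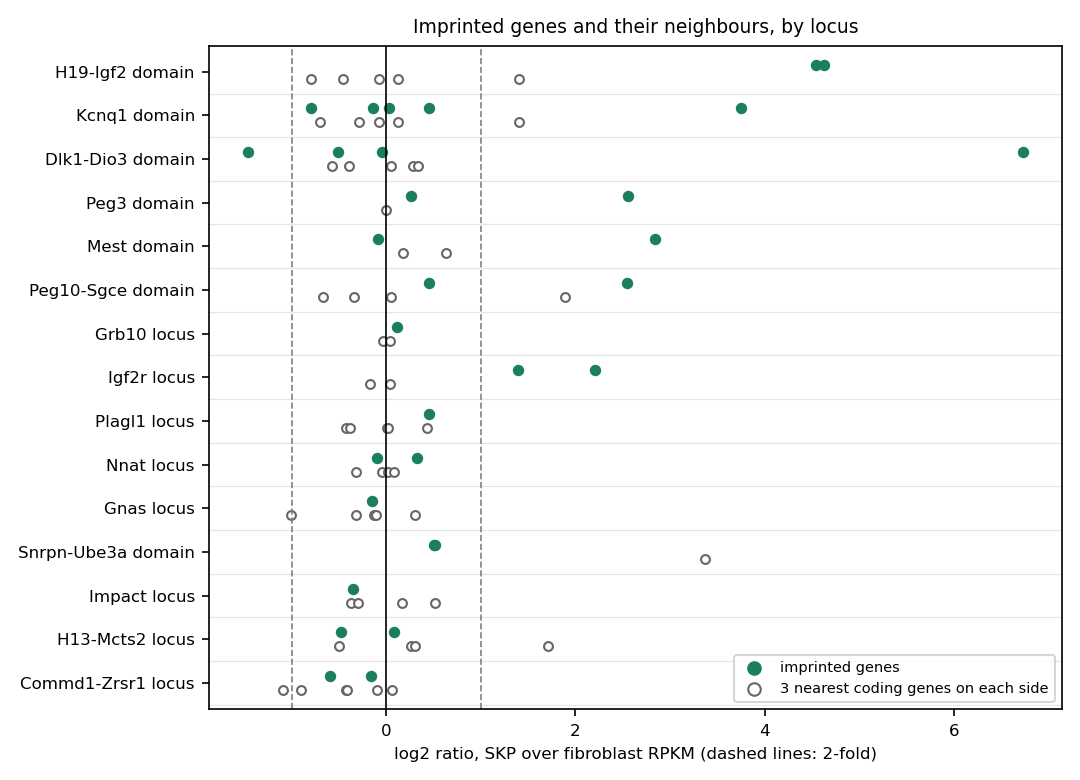
Log2 ratio of SKP over fibroblast RPKM for imprinted genes (filled) and the 3 nearest coding genes on each side that are not on a list of imprinted genes (open), by locus, for genes above the expression filter. At the H19-Igf2 domain both imprinted genes lie above 4.5 while the neighbours lie between -0.79 and 1.40. Neighbours on the Igf2 side of that domain lie beyond genes passed over as imprinted and are not adjacent to it.

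Other imprinted genes, from a list of 45 that excludes the members, had 25 above the filter, of which 5 were higher in SKPs, 3 were lower and 17 differed by less. The median log2 ratio of that list was 0.13. Tfpi2, a protease inhibitor gene (11.5 against 107 RPKM), Dcn, the proteoglycan decorin (291 against 2007), Begain, a synaptic protein gene near Dlk1 (2.61 against 9.87), Cobl (0.444 against 1.01) and Zdbf2 (0.525 against 1.15) were higher in SKPs. The amino acid transporter gene Slc38a4 (9.35 against 1.89), Nap1l5 (2.22 against 0.719) and the lipid flippase gene Atp10a (3.93 against 1.90) were lower. Cobl and Zdbf2 passed the filter through the SKP library alone and Nap1l5 through the fibroblast library alone, so these 3 were kept by the library in which they are high. All genes above the filter were called higher in 12.1% and lower in 6.41%. Dcn is imprinted mainly in placenta and also stood among the dermal fibroblast markers.

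A list of genes linked to imprints and DNA methylation, Tet2 and Tet3 among them, had 23 above the filter. Of these, 1 was higher and 1 was lower (4.35% each), beside 12.1% and 6.41% of all genes, and the median log2 ratio was 0.06. Dnmt3a, a de novo DNA methyltransferase gene, stood at 3.31 RPKM in fibroblasts and 9.19 in SKPs (2.78-fold higher, 2.53 to 3.05). Zfp57, whose protein binds the hexamer printed above, stood at 12.5 and 4.04 RPKM, 3.10-fold lower in SKPs. The scaffold gene Trim28, which acts with ZFP57, stood at 107 and 108 RPKM, and Nono at 145 and 136.

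In the authors' deposited table, 11 of the 43 members were in the filtered set, 10 higher in SKPs and Meg3 lower, beside 15.3% of all 17431 genes there. Those 11 were the 10 called here and Ppp1r9a, and that filtered table held no gene with an absolute log2 ratio under 1.00 or a false discovery rate above 0.001. The test behind that rate was not named, and with 1 library per group it compares these libraries, not the conditions.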

How the data were processed

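Per the file headers, the deposited tables give for each gene a whole-number count of reads, its length, its coverage in percent and its RPKM, and the count was not normalized. The deposited RPKM equals reads over length and over the library's counted reads. The authors' comparison table gives a log2 ratio of fibroblast over SKP RPKM, with 0.01 in place of 0, and a p-value and false discovery rate. Per the deposited mapping tables, which give counts and percent of total reads, 81.65% of 23374716 fibroblast reads and 85.13% of 22981183 SKP reads mapped with at most 2 mismatches, and 19.69% and 21.69% matched several positions. Per the submitters' processing notes reads were placed on mm9. No aligner, counter, annotation or strand setting is given in the sources used, so paralogs and antisense genes could not be separated. Reference sequences are on GRCm38.p6, and that gene table served otherwise for neighbour order only.

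Ratios, Clopper-Pearson intervals and calls were computed with scipy 1.17.1, numpy 2.4.6 and pandas 2.3.3 under Python 3.11.15, tested on simulated data, and drawn with matplotlib 3.10.9. A gene was called at 2-fold with an interval that excluded equality. A library at 0 reads was set to a floor of 3 reads, and no fold is given where the other library had no more than that. With 1 library per group no p-value was computed. The members and lists were chosen with earlier results of these data known. All members are named, and of the other lists up to 4 genes of largest ratio in each direction and 2 of highest RPKM, and of the neighbours up to 4 in each direction. Igf1, Zdbf2, Dlk2, Dll1, Pparg, Snai2, Tet2 and Tet3 fall outside that rule and were named after their values were seen, as were markers listed at 0. The same holds for Ins2, Th, Tssc4, Cars and Tnfrsf26 near the H19-Igf2 domain. Filter, scaling, log scale, denominator, allele class and number of neighbours were varied. The result of 1 further marker list is not reported here.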

Additional observations from a re-analysis of the deposited data

How the results depend on the processing

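Under 2 other scalings, on the log2(RPKM + 1) scale and at 5 RPKM or more, the count of imprinted genes 2-fold or more higher in SKPs was 9 and of those lower 1, and without a filter 10 were higher and 1 lower. At 5 RPKM or more Dlk1, Zim1, Peg10 and Airn passed through the SKP library alone, so that count and its median are no further support. All 31 single genes kept their call under both scalings and on the log2(RPKM + 1) scale. The median log2 ratio was 0.39 at 5 RPKM or more, where 28 genes were left, and 0.19 to 0.28 under the other alternatives. Without the 10 genes with the most reads of each library, H19 among them, the imprinted genes took 0.730% of the fibroblast and 1.04% of the SKP reads. With 5 neighbours on each side, which brings in more genes, 84 were above the filter, 7 were higher (8.33%), 4 were lower (4.76%) and the median was -0.04. Over all genes above the filter the shares were 12.1% and 6.41%. With other imprinted genes kept among the 3 nearest, an alternative chosen after seeing the data, 4 were higher (7.84%), 3 were lower (5.88%) and the median was -0.03. On the log2(RPKM + 1) scale 9.11% of all genes above the filter were called higher and 4.21% lower. Without genes whose imprinting depends on tissue or isoform, the maternal median was 0.12 and the counts called were the same. No paired analysis was possible because each group held 1 library, and for the same reason no library could be left out. Of the members with under 20 reads in both libraries, each had an interval that included equality or was given no fold, so a difference was not detectable at this depth.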

Other observations

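Dlk1 encodes a non-canonical ligand-like relative of the Notch ligands, and 9 genes of the Notch pathway were above the expression filter. Of these, 5 stood 2-fold or more higher in SKPs, 1 was lower and 3 were neither, with a median log2 ratio of 1.05. Of all genes above the filter, 12.1% were called higher and 6.41% lower. All 4 receptor genes were among the higher ones: Notch1 stood at 3.35 RPKM in fibroblasts and 7.84 in SKPs, Notch2 at 10.4 and 21.7, Notch3 at 2.02 and 5.13, and Notch4 at 0.0740 and 1.38. Notch4, which endothelial cells express, passed the filter through the SKP library alone, as did Hey1 and the ligand gene Dll1. The count and median of this list are therefore no support. The 4 endothelial markers summed to 1.53 and 4.61 RPKM, and the part of endothelial cells in the Notch4 value was not tested. The target gene Hey1 was 2.48-fold higher (1.41 to 4.55), whereas the target gene Hes1 stood at 43.0 RPKM in fibroblasts and 26.1 in SKPs. Jag1, a canonical Notch ligand gene, stood at 7.96 and 2.26 RPKM and was 3.53-fold lower in SKPs. Dlk2, the closest relative of Dlk1, stood at 1.45 and 0.965 RPKM, and its interval (0.395 to 1.10-fold) includes equality.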
